A study of Homo sapiens with 38 samples.

Results

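The data described here are 7 of the 38 arrays of a time course in A549 cells: the 4 control arrays taken 4 h after interleukin-1 beta (IL1B) and the 3 control arrays taken 8 h after it, chosen by their labelled arm and hour. A549 is an established line from a human lung adenocarcinoma and is used as a model of alveolar type II epithelium. The series crossed a control arm with an arm in which a pool of siRNAs silenced ORMDL3, an endoplasmic reticulum protein that restrains sphingolipid synthesis, and sampled both at 0, 2, 4, 8 and 10 h. All cells, control cells included, went through 48 h of silencing and 24 h without serum before IL1B at 1 ng/ml. The labels call the control arm only a control and do not say what it was transfected with. They number the arrays without saying that each came from its own culture, and the spread that the p-values rest on may therefore be technical. The untreated arrays were not used, so every difference below is between 2 times after IL1B and none is a change from rest.

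IL1B binds its receptor and, through MYD88 and the IRAK kinases, activates NF-kB and the MAP kinases. NF-kB first switches on a wave of genes for chemokines, cytokines and adhesion molecules together with its own inhibitors, such as the IkB proteins and A20 (TNFAIP3), and many messages of this wave are short-lived. Later waves include genes of secondary signals, among them the interferon-stimulated genes, which the transcription factor complex ISGF3 controls through the interferon-stimulated response element (ISRE). In airway epithelium the early products recruit neutrophils and other leukocytes, and the interferon-stimulated products block virus growth.

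To show the letters that both waves are known for, promoters of 6 named genes that hold them are printed. They run from 250 bases before to 50 after the annotated start, 5′ to 3′ on the gene's strand, from RefSeq (GRCh38.p14). Capitals mark matches on either strand to the 10-base NF-kB consensus (kB) in the first 3 and to the ISRE core GAAANNGAA in the last 3. SELE lies at chr1:169734030-169734329, CCL20 at chr2:227813592-227813891, PTX3 at chr3:157436600-157436899, IFIT1 at chr10:89392373-89392672, MX1 at chr21:41420308-41420607 and IFIT3 at chr10:89327747-89328046. SELE is on the minus strand and the others are on the plus strand.
SELE: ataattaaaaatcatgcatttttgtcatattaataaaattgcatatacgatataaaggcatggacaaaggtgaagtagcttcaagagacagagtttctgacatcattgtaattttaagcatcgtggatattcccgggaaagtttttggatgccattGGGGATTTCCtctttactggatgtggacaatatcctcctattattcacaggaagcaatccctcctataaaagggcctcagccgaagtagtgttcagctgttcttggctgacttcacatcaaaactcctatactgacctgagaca
CCL20: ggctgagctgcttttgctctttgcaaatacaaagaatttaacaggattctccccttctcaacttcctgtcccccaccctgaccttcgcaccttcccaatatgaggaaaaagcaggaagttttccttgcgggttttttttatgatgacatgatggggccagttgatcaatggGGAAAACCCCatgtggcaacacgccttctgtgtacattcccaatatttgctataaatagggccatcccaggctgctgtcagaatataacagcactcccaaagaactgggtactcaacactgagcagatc
PTX3: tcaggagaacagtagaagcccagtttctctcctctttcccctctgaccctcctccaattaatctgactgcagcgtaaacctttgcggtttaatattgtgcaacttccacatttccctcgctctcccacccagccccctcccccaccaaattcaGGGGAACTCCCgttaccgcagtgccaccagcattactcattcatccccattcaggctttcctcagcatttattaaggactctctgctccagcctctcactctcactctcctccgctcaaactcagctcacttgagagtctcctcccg
IFIT1: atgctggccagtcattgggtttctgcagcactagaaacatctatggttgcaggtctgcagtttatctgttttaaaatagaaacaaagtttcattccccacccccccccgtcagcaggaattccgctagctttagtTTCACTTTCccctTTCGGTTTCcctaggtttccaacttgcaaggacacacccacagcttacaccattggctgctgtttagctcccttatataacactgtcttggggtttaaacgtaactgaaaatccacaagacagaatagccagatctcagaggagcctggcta
MX1: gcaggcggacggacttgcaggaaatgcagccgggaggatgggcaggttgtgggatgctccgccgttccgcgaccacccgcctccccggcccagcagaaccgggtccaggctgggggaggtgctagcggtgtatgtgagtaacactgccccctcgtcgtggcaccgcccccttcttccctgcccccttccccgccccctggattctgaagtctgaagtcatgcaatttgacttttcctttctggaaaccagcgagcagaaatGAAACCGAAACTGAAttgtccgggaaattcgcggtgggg
IFIT3: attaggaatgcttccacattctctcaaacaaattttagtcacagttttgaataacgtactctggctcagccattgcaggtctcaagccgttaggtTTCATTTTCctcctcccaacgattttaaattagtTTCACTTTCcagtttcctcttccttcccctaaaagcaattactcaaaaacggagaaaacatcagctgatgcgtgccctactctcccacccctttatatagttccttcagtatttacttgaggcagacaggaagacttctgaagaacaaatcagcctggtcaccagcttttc

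The matches in SELE, CCL20 and PTX3 lay within 100 bases before the start, the one in SELE at bases -94 to -85, and the 2 of PTX3 overlap each other on opposite strands. Both matches of MX1 lay after its annotated start, at bases 12 to 20 and 18 to 26. A kB match was present in 6 of the 17 promoters available for the 20 steepest fallers from 4 to 8 h (35.3%) and in 14 of 95 for all genes called down 2-fold or more (14.7%), beside 5.72% of all 27305 promoters and 6.86% of those of measured genes. Among genes called up 2-fold or more it was present in 5 of 50 (10.0%). An ISRE core was present in 23 of the 31 promoters available for interferon-stimulated effectors (74.2%), beside 8.29% of all promoters and 5.95% of those of measured genes. It was present in 4 of the 5 promoters of members that fell from 4 to 8 h and in 11 of the 17 of members that rose. For 2 other searches, the TEAD core GGAATG and the CArG box matched 6 (12%) and 0 of the 50 promoters of genes called up 2-fold or more. They matched 14.05% and 1.29% of all promoters, and 10.68% and 0.99% of those of measured genes. Matches of kB and ISRE overlapped in 2 of the 27305 promoters. These are counts of letters in a 300-base window and say nothing of binding.

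Of 14488 probe sets tested, 2983 (20.6%) differed between 8 h and 4 h in control cells, called at an adjusted p under 0.05 by limma with Benjamini-Hochberg adjustment over all probe sets. They split evenly into 1498 higher (10.3%) and 1485 lower (10.2%) at 8 h. The median size of a called difference was 0.42 on the log2 scale, on which 1 unit is 2-fold. Large changes were mostly falls: 132 called probe sets fell and 75 rose 2-fold or more, and 10 fell and 1 rose 4-fold or more. In 3919 probe sets (27%) the 3 arrays at 8 h did not overlap the 4 at 4 h, and 2730 were both called and separate. In bulk RNA, fewer cells making a message and less of it per cell cannot be told apart. The 7 arrays had medians of 8.10 to 8.15 and pairwise correlations of 0.97 to 0.99 across probe sets. Control ORMDL3 read 6.78 to 7.52 at 4 h and 7.42 to 7.64 at 8 h, against 5.33 to 5.55 and 5.29 to 5.57 in the knockdown arm. Of 18 lung epithelial markers 10 were measured, and SFTPB, SFTPC, SFTPD, NAPSA and AGER were among those not measured. Of the 10 measured, 8 lay above the array median on all 7 arrays. The keratins KRT7, KRT8 and KRT18 also lay above the upper quartile on all 7, while EPCAM and LAMP3 lay above the median on 0 of 7. Of 13 leukocyte markers 4 were measured, and their summed level was 30.4 to 30.8 at 4 h and 30.9 to 31.6 at 8 h. CD68 lay above the upper quartile on all 7 arrays, while CD14, ITGAM and ITGAX lay above the median on 0 of 7. CD68 (0.31) and ITGAM (0.31) of that list were called up, both calls ending without 8 h replicate 2 (adjusted p = 0.14 and 0.061). The part of other cells in the results was not tested. Of 13 fibroblast and endothelial markers 2 were measured, summing to 13.2 to 13.6 at 4 h and 12.7 to 13.2 at 8 h. These, COL1A1 and CDH5, lay above the median on 0 of 7 arrays, and CDH5 was called down (-0.37, adjusted p = 0.0035 by limma).

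The steepest falls were in adhesion molecules and secreted signals. SELE encodes E-selectin, which slows leukocytes on activated endothelium. Its log2 levels were 9.43, 9.61, 9.22 and 9.05 at 4 h against 5.45, 5.49 and 5.49 at 8 h. All 3 late arrays lay far below all 4 early ones. The difference was -3.85 ± 0.17 (SE), leaving 6.93% of the 4 h level (adjusted p = 6.9e-16). Its 8 h levels lay under the lower quartiles of those arrays (6.62 to 6.65). How far background signal limits the share left was not tested. VCAM1, another leukocyte adhesion molecule, read 7.19, 7.59, 6.97 and 6.87 at 4 h against 5.46, 5.23 and 5.29 at 8 h and fell by 1.83 (adjusted p = 6.8e-11). The 8 h levels of VCAM1 lay under those quartiles too. ICAM1, the main epithelial ligand of leukocyte integrins, read 13.002, 13.08, 13.08 and 12.92 at 4 h against 11.59, 11.76 and 11.60 at 8 h. Its fall of 1.37 ± 0.12 left 38.7% of the 4 h level (adjusted p = 7.2e-10). CD83 (-1.73), a surface marker of activation, and CD274 (-1.48), the checkpoint ligand PD-L1, fell too. Of the 22 measured members of the adhesion and TNF receptor list, 13 fell, 1 rose and 8 were not called, with a median of -0.41 beside 0.02 for all probe sets. The riser was TNFRSF1A (0.32), the principal TNF receptor, which was not called in the fit of the 7 arrays alone, while the second TNF receptor TNFRSF1B (-0.63), the death receptors FAS (-0.99) and TNFRSF10B (-0.63) and the costimulatory receptor TNFRSF9 (-0.41) fell.

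Chemokines did not move as a block. CX3CL1 (fractalkine), which draws monocytes and T cells, read 9.41, 9.63, 9.55 and 9.36 at 4 h against 6.97, 7.43 and 6.97 at 8 h. The arrays separated completely, with 19.4% of the 4 h level left (difference -2.36 ± 0.14, adjusted p = 5.7e-13). CCL20, which draws dendritic cells through CCR6, read 12.53, 12.76, 12.45 and 12.52 at 4 h against 10.71, 10.97 and 10.76 at 8 h, and 29.7% was left (difference -1.75 ± 0.13, adjusted p = 1.7e-11). Among neutrophil-attracting chemokines, CXCL3 read 10.49, 11.15, 10.95 and 10.92 at 4 h against 9.18, 9.71 and 9.43 at 8 h. It fell by 1.44 (adjusted p = 2.6e-09), while CXCL2 fell by 0.57 and CXCL8, the best known of them, by 0.40. The CXCL8 call ended without 8 h replicate 1 (adjusted p = 0.12). CXCL5 (0.13, adjusted p = 0.31) and CXCL6 were not called, so 3 of 5 measured members fell and 0 rose. Of 7 measured CC chemokines and fractalkine 3 fell and 0 rose. CCL2, which draws monocytes, differed by only -0.32, with overlapping arrays and a call that ended in a fit of the 7 arrays alone (adjusted p = 0.064). CCL5 (-0.13, adjusted p = 0.55) was not called, nor were the interferon-type chemokines CXCL10 (-0.18, adjusted p = 0.62) and CXCL11 (0.16, adjusted p = 0.65).

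**Figure D1:**
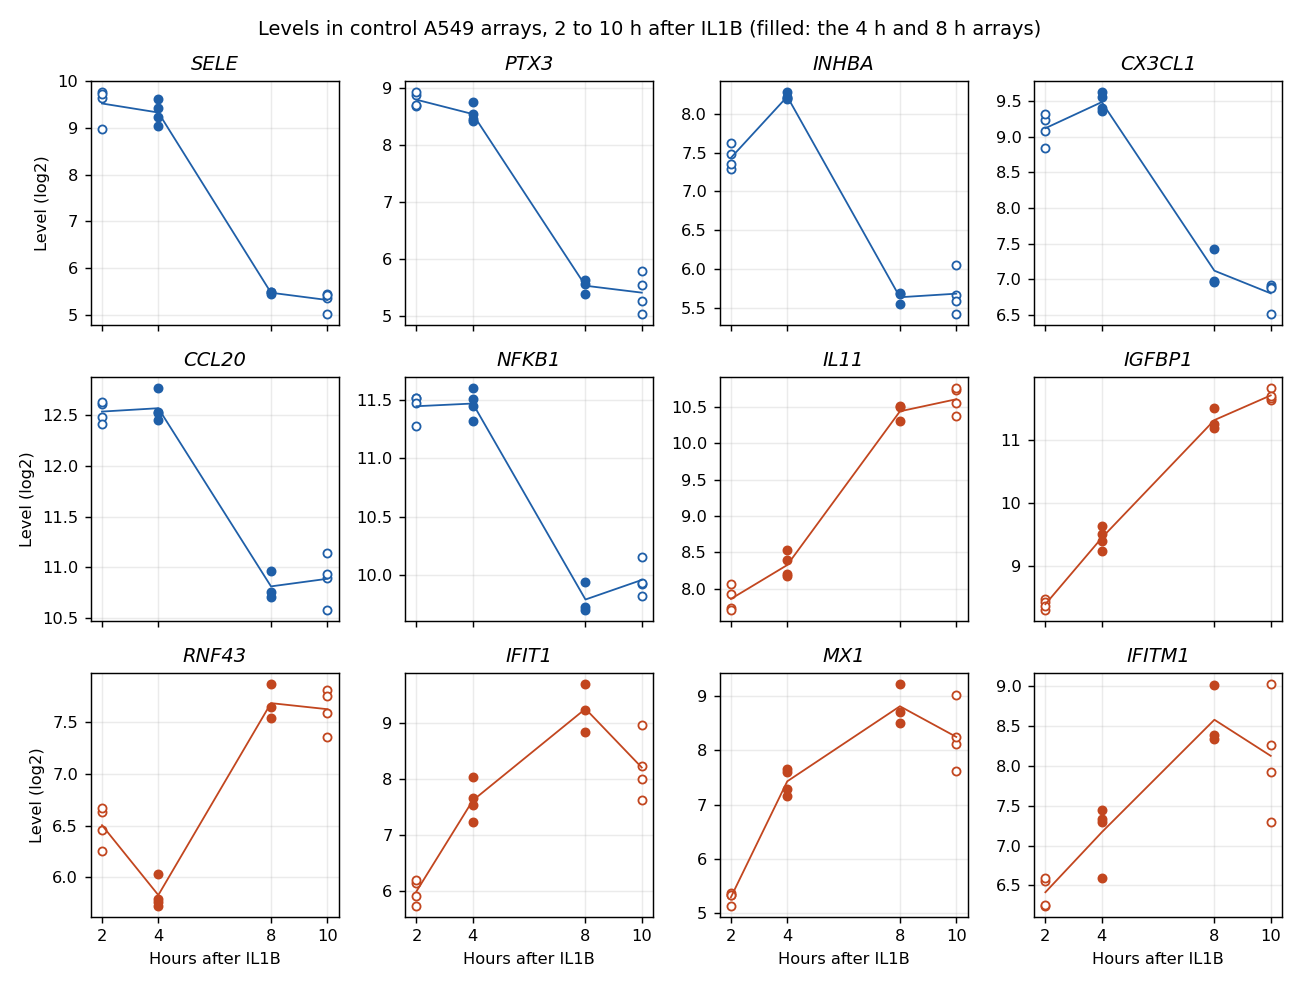
Log2 level (vertical axes) against hours after IL1B (horizontal axes) for 12 genes in control arrays, 1 point per array, 4 arrays an hour except 3 at 8 h, with lines through the means. Filled points are the 4 h and 8 h arrays; the 6 falling genes (blue) sit near their 2 h level or above it at 4 h except SELE and PTX3, which were slightly below, and drop by 8 h, while the 6 rising genes (red) are highest at 8 h or 10 h.

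Cytokines followed both courses. INHBA, the subunit of activin A, read 8.22, 8.28, 8.18 and 8.20 at 4 h against 5.69, 5.55 and 5.68 at 8 h, so 16.7% was left (difference -2.58 ± 0.16, adjusted p = 8.1e-13). PTX3, a soluble pattern recognition molecule, read 8.75, 8.46, 8.42 and 8.55 at 4 h against 5.57, 5.63 and 5.39 at 8 h and kept 12.3% (adjusted p = 3.8e-14). In both, all 8 h arrays lay below every 4 h array. The 8 h levels of both also lay under the lower quartiles of those arrays (6.62 to 6.65). How far background signal limits the shares left was not tested. IL6, the main inducer of the hepatic acute phase, read 10.74, 10.82, 10.72 and 10.94 at 4 h against 9.51, 9.83 and 9.75 at 8 h. It kept 46.4% of its 4 h level (difference -1.11 ± 0.12, adjusted p = 2.3e-08). IL23A (-1.62), which sustains Th17 cells, and the colony-stimulating factors CSF3 (-0.82) and CSF1 (-0.79) also fell. IL11, an IL6-family cytokine linked to fibrosis, went the other way and was the highest riser of all. It read 8.17, 8.53, 8.39 and 8.20 at 4 h against 10.31, 10.51 and 10.49 at 8 h, a 4.33-fold rise with no overlap (difference 2.11 ± 0.13, adjusted p = 5.7e-13). The related LIF has a pair of probe sets that disagree: the brighter one fell by 0.57 and the other differed by 0.03 (adjusted p = 0.92). Over the list of cytokines and growth factors, 10 of 20 measured members fell and 3 rose, IL11, BMP2 (0.49) and EBI3 (0.28). The message of the stimulus itself, IL1B, read 10.06, 10.11, 10.10 and 10.02 at 4 h against 8.32, 8.44 and 8.05 at 8 h, and that of IL1A read 10.57, 10.82, 10.57 and 10.52 at 4 h against 8.37, 8.71 and 8.38 at 8 h. Both fell without overlap, by 1.81 and 2.13 (adjusted p = 2.4e-09 and 2.3e-09). In the wider list of IL1 family members, receptors and proximal signalling, 6 of 15 measured members fell, among them IL36G (-0.91), the kinase IRAK2 (-0.44) and the TAK1-binding TAB2 (-0.44), and 1 rose, IL1R1 (0.60), the signalling receptor.

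Inside the NF-kB pathway most subunits and inhibitors fell. Of 11 measured NF-kB subunits and IkB proteins 9 fell and 1, the atypical IkB protein BCL3 (0.36), rose, with a median of -0.62, and the count of falls stayed at 9 with any 1 of the 7 arrays left out. NFKB1, the p50 precursor, read 11.50, 11.60, 11.45 and 11.32 at 4 h against 9.94, 9.70 and 9.73 at 8 h. The groups stood apart by 3.2-fold (difference -1.68 ± 0.08, adjusted p = 1.0e-14). REL (-1.31) and NFKB2 (-0.74) fell more than RELB (-0.57), although those sizes were not tested against each other. Of the inhibitors, NFKBID (-1.19) and NFKBIE (-0.89) were furthest from 0, NFKBIB (0.02, adjusted p = 0.84) was not called, and NFKBIA, the classic IkB-alpha, differed by -0.28 ± 0.06 (adjusted p = 4.8e-04). NFKBIA read 12.81, 12.81, 12.81 and 12.77 at 4 h against 12.52, 12.53 and 12.50 at 8 h, which is a narrow gap but one without overlap.

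A further 13 of 18 measured A20-type feedback genes and TRAF adaptors fell and 0 rose. TRAF1, an adaptor that holds cIAP proteins at TNF family receptors, led them at -2.15, ahead of TNFAIP8 (-1.50), a regulator of apoptosis, and CYLD (-1.04), a deubiquitinase. TNFAIP3 (A20), the best known brake on this pathway, read 11.88, 11.86, 11.92 and 11.79 at 4 h against 11.13, 11.14 and 11.05 at 8 h. It kept 59.3% of its 4 h level (difference -0.75 ± 0.08, adjusted p = 1.5e-08). IRF1, a transcription factor that NF-kB induces directly, read 10.64, 10.87, 10.59 and 10.22 at 4 h against 9.12, 9.05 and 8.80 at 8 h and fell by 1.59 (adjusted p = 5.3e-07). Some well known early targets hardly moved: PTGS2 (COX-2) differed by -0.19, a call that ended in 8 of 18 alternative fits (adjusted p up to 0.21), and SOD2 (-0.10, adjusted p = 0.22), the mitochondrial superoxide dismutase, and ZC3H12A (-0.05, adjusted p = 0.8), which cuts inflammatory messages, were not called.

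Several steep fallers are less often named beside IL1B. RASSF5, a RAS- and RAP-binding adaptor, read 10.24, 10.07, 10.23 and 10.30 at 4 h against 6.54, 6.62 and 6.63 at 8 h. Its 12.2-fold fall (difference -3.61 ± 0.10, adjusted p = 2.4e-20) was second to SELE. STX11 (-2.47), a syntaxin of regulated secretion, FGF18 (-2.48), a growth factor of lung development, NFATC2 (-2.05), a calcium-dependent transcription factor, RASGRP1 (-1.83), a RAS activator, and SDC4 (-1.76), a heparan sulfate proteoglycan, were also among the 20 steepest. So were SLC52A3 (-1.87), which takes up riboflavin, MAMLD1 (-1.95), FHIP1A (-1.84) and ABTB2 (-1.72). Over all 20 the differences ran from -3.85 to -1.72 with a median of -2.0003.

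Among the genes that rose with IL11 were secreted and matrix-linked products. CEMIP, which breaks down hyaluronan, read 6.95, 6.73, 6.75 and 6.71 at 4 h against 8.69, 8.88 and 8.67 at 8 h. That is 3.9-fold (difference 1.96 ± 0.16, adjusted p = 2.0e-10). IGFBP1, which binds insulin-like growth factors, read 9.39, 9.64, 9.25 and 9.51 at 4 h against 11.18, 11.50 and 11.26 at 8 h, 3.63-fold higher at 8 h (adjusted p = 4.9e-14). In both, the lowest 8 h array lay well above the highest 4 h array. GREM1 (1.57) and VASN (1.39), extracellular inhibitors of BMP and of TGF-beta, and ANGPTL4 (1.51), an inhibitor of lipoprotein lipase, rose as well. BMF, a BH3-only protein that promotes apoptosis, read 6.80, 6.54, 6.68 and 6.54 at 4 h against 8.76, 8.69 and 8.45 at 8 h. Its rise was 3.99-fold (difference 1.99 ± 0.10, adjusted p = 1.0e-14). SPNS2 (1.52) exports sphingosine 1-phosphate, and FFAR4 (1.59) is a receptor for long-chain fatty acids.

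Wnt feedback genes also appear here. RNF43, a ubiquitin ligase that removes Wnt receptors from the surface, read 5.79, 6.03, 5.72 and 5.76 at 4 h against 7.54, 7.87 and 7.65 at 8 h. The arrays were far apart (3.63-fold, difference 1.86 ± 0.15, adjusted p = 1.7e-10). The 4 h levels of RNF43 lay under the lower quartiles of those arrays (6.61 to 6.64). How far background signal limits the fold was not tested. The Wnt receptor FZD2 (1.46), the secreted antagonist DKK1 (0.81), the intracellular antagonist NKD1 (0.84) and ZNRF3 (0.27), a relative of RNF43, rose as well, and FZD7 (-0.39) fell, so 5 of 13 measured members rose and 1 fell, with 0 falls without 8 h replicate 1 or 8 h replicate 3. YAP and TGF-beta responsive genes gave 12 rises and 5 falls among 23 measured (median 0.24). CCN1, a matricellular protein, read 8.46, 8.19, 8.27 and 9.09 at 4 h against 9.64, 9.86 and 9.77 at 8 h, a 2.38-fold rise (adjusted p = 4.0e-07). CCN2 (1.02), ANKRD1 (1.27), the inhibitory SMADs SMAD7 (1.28) and SMAD6 (1.29) and ID1 (1.31), ID2 (0.91) and ID3 (1.07), helix-loop-helix inhibitors induced by BMP signals, rose. F3 (-0.83), which starts coagulation, and AMOTL1 (-0.54) fell. The count of falls was 2 in a fit of the 7 arrays alone, and 3 without 4 h replicate 4 or 8 h replicate 3. The ID1 value rests on a 4 h group in which replicate 4 read 8.73 and the others 10.01 to 10.17.

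Immediate-early transcription factors split almost evenly, with 10 of 26 measured members up and 8 down. JUNB read 11.16, 10.96, 10.87 and 10.57 at 4 h against 11.91, 12.12 and 12.02 at 8 h, 2.18-fold higher at 8 h without overlap (difference 1.13 ± 0.15, adjusted p = 2.6e-06). FOS (0.90) and FOSB (0.99), partners of JUN proteins in AP-1, rose with it, as did EGR1 (0.41) and the orphan receptors NR4A1 (0.38), NR4A2 (0.43) and NR4A3 (0.51). The other AP-1 members FOSL1 (-0.76) and FOSL2 (-0.28) fell, and so did MAFF (-0.88), KLF6 (-0.71), KLF4 (-0.49), CEBPD (-0.62) and MYC (-0.24). ATF3 (-0.39, adjusted p = 0.16) was not called. In MAP kinase feedback, GADD45B (1.12) and the Sprouty proteins SPRY1 (0.75) and SPRY2 (0.71) rose while the phosphatase DUSP8 (-1.03) fell. That list gave 4 rises and 6 falls among 17 measured.

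**Figure D2:**
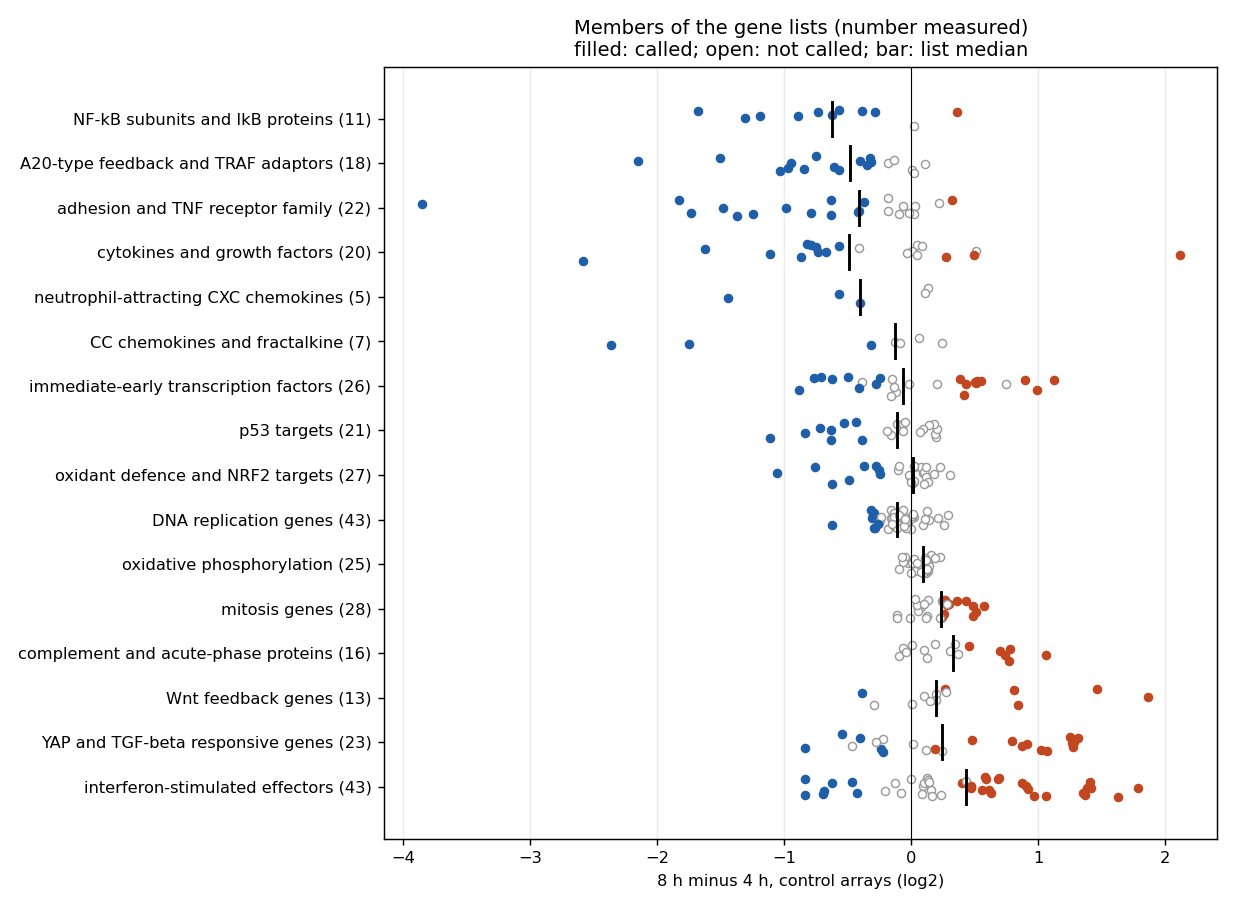
Difference between 8 h and 4 h in control arrays (log2, horizontal axis) for each measured member of 16 gene lists (rows, number measured in brackets), filled where called and open where not, with a black bar at the list median. The medians run from -0.62 for NF-kB subunits and IkB proteins to 0.43 for interferon-stimulated effectors, and no member of the oxidative phosphorylation list was called.

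Complement and acute-phase proteins moved one way among called members: 6 of 16 measured rose and 0 fell, 4 to 6 rising with 1 array left out. They were C3 (0.78), the central complement protein, LBP (1.06), which binds endotoxin, the iron-binding defence protein LCN2 (0.74), CP (0.70), C1R (0.45) and FGA (0.77). C3 read 11.10, 11.25, 11.11 and 11.17 at 4 h against 11.78, 12.06 and 11.97 at 8 h, so the groups did not overlap (adjusted p = 1.2e-09). The FGA call was lost in 8 of up to 18 alternative fits (adjusted p up to 0.17). IDO1, which degrades tryptophan, read 6.63, 6.54, 6.75 and 5.85 at 4 h against 7.48, 6.95 and 7.47 at 8 h. Its difference of 0.85 ± 0.27 (adjusted p = 0.023) did not pass the test when 4 h replicate 4 was left out, nor when replicate 1 or 3 of the 8 h group was (adjusted p between 0.094 and 0.10).

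In the main fit the called mitosis genes all rose, and the called DNA replication genes all fell. Of all probe sets 10.3% rose and 10.2% fell. Mitosis genes gave 11 rises and 0 falls among 28 measured, for example CDC25C (0.57), AURKA (0.51) and PLK1 (0.49), which drive entry into mitosis, with 5 rises without 8 h replicate 1 or without 8 h replicate 3. DNA replication genes gave 0 rises and 8 falls among 43, for example the cyclin CCNE2 (-0.62), with 3 falls without 8 h replicate 2. Of 21 measured p53 targets 8 fell and 0 rose, led by the BH3-only genes BBC3 (-1.11) and PMAIP1 (-0.83), and that count stayed at 8 with any 1 array left out. Among 27 oxidant defence and NRF2 targets 8 fell and 0 rose, among them OSGIN1 (-1.06), HMOX1 (-0.76), which degrades heme, and GCLC (-0.62) and GCLM (-0.49), which make glutathione. Limma called 0 of 25 measured oxidative phosphorylation genes, with 1 at an unadjusted p under 0.05. It called 0 of 117 small nucleolar and Cajal body RNA probe sets, with 2 at that p, and their mean level was 7.22 to 7.93 at 4 h and 7.49 to 7.65 at 8 h.

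Among interferon-stimulated effectors 22 of 43 measured members rose, 7 fell and 14 were not called, with a median of 0.43 beside 0.02 over all probe sets. Leaving out 8 h replicate 2, whose mean over the list was the highest, left 16 rises, and 8 h replicate 3 left 4 falls. Without dim probe sets only 13 members were tested, and 5 rose. IFIT1, which binds foreign RNA, read 7.67, 8.04, 7.53 and 7.23 at 4 h against 9.22, 9.69 and 8.83 at 8 h. That was a 3.1-fold rise without overlap (difference 1.63 ± 0.28, adjusted p = 5.9e-05). MX1, a GTPase that blocks influenza virus, read 7.67, 7.61, 7.29 and 7.16 at 4 h against 8.71, 9.22 and 8.51 at 8 h and rose 2.61-fold (adjusted p = 8.3e-05). IFI44L read 4.66, 4.60, 4.63 and 4.34 at 4 h against 6.40, 6.43 and 6.19 at 8 h, 3.44-fold higher (adjusted p = 2.5e-06). In each of the 3, every 8 h array lay above every 4 h array. All IFI44L levels lay under the lower quartiles of their arrays (6.61 to 6.64 at 4 h, 6.62 to 6.65 at 8 h). How far background signal limits its fold was not tested. IFITM1 (1.41), which blocks virus fusion, MX2 (1.41), TRIM22 (1.37), IFI6 (1.36) and the RNA-activated synthetases OAS2 (1.06) and OAS1 (0.68) also rose.

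Members of the same gene families fell. IFIT3, which partners IFIT1, read 8.03, 8.27, 8.14 and 7.58 at 4 h against 7.31, 7.61 and 7.005 at 8 h, and the highest 8 h array lay just above the lowest 4 h array. Its difference of -0.69 ± 0.18 passed the test (adjusted p = 0.0057) but not without 8 h replicate 3 (adjusted p = 0.066). It was added to the named genes after its values were seen. IFIT2 (-0.68), IFIT5 (-0.83), the RNA sensors IFIH1 (-0.62) and RIGI (-0.43), the antibody receptor TRIM21 (-0.84) and APOL2 (-0.47) fell too. The promoters of IFIT1 and IFIT3 printed above each hold 2 ISRE cores. ISG15 (0.09, adjusted p = 0.54), a ubiquitin-like modifier, was not called. Upstream, the list of interferons, JAK-STAT proteins and SOCS proteins gave 5 rises and 9 falls among 24 measured. The receptor chains IFNAR2 (-0.81), IFNGR2 (-0.77) and IFNGR1 (-0.32), the kinase JAK2 (-0.61) and STAT5A (-1.49) fell. The regulator IRF7 (0.92), IRF9 (0.71), the DNA-binding subunit of ISGF3, and the JAK-STAT feedback genes SOCS2 (0.91) and CISH (0.55) rose. The interferon gene IFNL3 (0.08) was not called.

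Early and late genes were next defined by arrays outside the comparison, the control arrays at 2 h and 10 h. An early gene was called and at least 2-fold lower at 10 h than at 2 h, and a late gene called and at least 2-fold higher. Of 172 early probe sets, 153 fell from 4 to 8 h (89.0%), 0 rose and 19 were not called, with a median of -1.01. Of 134 late probe sets, 111 rose (82.8%), 0 fell and 23 were not called, with a median of 0.73. Over all probe sets 10.2% fell and 10.3% rose. The span from 2 to 10 h contains the step from 4 to 8 h, so a lean in the same direction is partly built into the definition. The shares count the probe sets called in this step, whatever part of their change from 2 to 10 h it held. They are therefore a description and no independent test. The quartiles were -1.38 and -0.75 for early probe sets and 0.51 and 1.05 for late ones. A few went their own way: RND1, a small GTPase, differed by -1.42 between 10 h and 2 h but by -0.0036 between 8 h and 4 h, and the early transcription factor EGR3 differed by -0.14. The late gene WEE1, a mitotic inhibitor kinase, has a pair of late probe sets, which differed by -0.02 and 0.34, neither called. The late gene DOCK4 differed by 0.04. These 4 were picked after their values were seen. The members furthest against their class, the late gene DET1 (-0.45) and the early small nucleolar RNA SNORD34 (0.27), were not called.

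**Figure D3:**
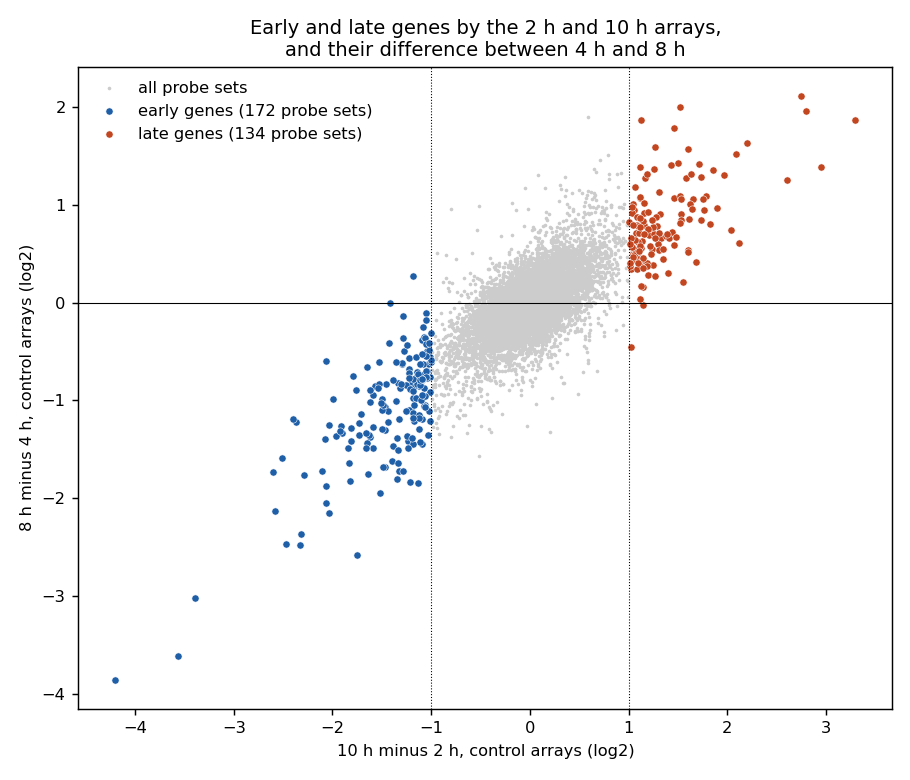
Difference between 8 h and 4 h (vertical axis, log2) against the difference between 10 h and 2 h (horizontal axis, log2) in control arrays, 1 point per probe set, with dotted lines at the 2-fold limits. The 172 early probe sets (blue) centre on -1.01 and the 134 late ones (red) on 0.73 on the vertical axis.

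The hours on either side, which share the 4 h or the 8 h arrays with the comparison, are given for the members beside it. Between 2 and 4 h 1873 probe sets (12.9%) were called, 915 up and 958 down, and between 8 and 10 h 343 (2.37%), 256 up and 87 down. For the 20 steepest fallers the median difference was 0.16 from 2 to 4 h, with 7 called up and 3 down, and -0.10 from 8 to 10 h, with 2 called up and 1 down. CCL20 differed by 0.03 from 2 to 4 h, -1.75 from 4 to 8 h and 0.07 from 8 to 10 h. For FHIP1A the same steps were 1.26, -1.84 and -0.55, and for CD83 -0.88, -1.73 and 0.01. The 3 were chosen by the step from 4 to 8 h, so its size beside the other steps is a description. Among the 20 highest risers the median was 0.0036 from 2 to 4 h, with 5 called up and 7 down, and 0.05 from 8 to 10 h, with 1 called up and 1 down. RNF43 gave -0.68, 1.86 and -0.06, SLITRK6, a neuronal membrane protein, -1.47, 1.90 and 0.16, and IFIT1 1.62, 1.63 and -1.04. Of these 3, IFIT1 rose in the first step and the others fell.

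In the knockdown arm, measured on other arrays with 4 at each hour, the same step gave 1406 probe sets up (9.7%) and 1817 down (12.5%). Of the control calls, 2261 were also called in the same direction there, which is 75.8% of the control calls and 70.2% of the knockdown calls, and 0 were called in opposite directions. All 20 steepest fallers and 16 of the 20 highest risers were among them. SELE fell by 3.59, CCL20 by 2.28 and IL6 by 1.01 in the knockdown arm, and IL11 rose by 1.96. The difference between the arms in this step was tested directly, and limma called 0 of 14488 probe sets (0%), with 414 (2.86%) at an unadjusted p under 0.05. The smallest adjusted p was 0.097. In the alternative fits ICAM1 passed in 2, DKK1 in 1 and DUSP8 in 1, the last without knockdown 8 h replicate 3 (adjusted p = 0.017). ICAM1 was among the nearest to the threshold, with differences of -1.37 in control and -2.19 in knockdown cells (difference of the steps -0.82, 95% interval -1.15 to -0.49). For DKK1 the rises were 0.81 and 0.41 (difference -0.40, -0.56 to -0.24), for DUSP8 the values were -1.03 and -0.33 (difference 0.70, 0.42 to 0.98), and for BMF the rises were 1.99 and 1.42 (difference -0.58, -0.85 to -0.30). The intervals here and below are not adjusted for the 14488 probe sets. Genes near the threshold were picked by small p-values of this same difference, so intervals that leave out 0 are no test.

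For the interferon-stimulated effectors the counts differed between the arms. In knockdown cells 5 of 43 rose and 11 fell, against 22 and 7 in control cells. The step was lower in knockdown for 38 of the 43, with a median of -0.43 for knockdown minus control (range -1.12 to 0.16), beside 8212 of all 14488 probe sets and a median of -0.02. The test of this difference in limma called 0 of the 43, with 21 at an unadjusted p under 0.05. For IFIT1, knockdown arrays read 7.80, 7.41, 7.63 and 7.27 at 4 h against 8.64, 8.17, 7.95 and 7.39 at 8 h, so the groups overlapped (0.51, adjusted p = 0.17), and the steps differed by -1.12 (95% interval -1.90 to -0.35, adjusted p = 1). MX1 in knockdown cells read 7.40, 7.20, 7.46 and 7.30 at 4 h against 8.29, 7.97, 7.99 and 7.43 at 8 h (difference of the steps -0.81, -1.48 to -0.13). The mean over the list was 7.62 to 7.84 at 4 h and 8.04 to 8.33 at 8 h in control arrays, which do not overlap. In knockdown arrays it was 7.66 to 7.78 and 7.47 to 7.89, which do. The knockdown count of 5 rises rested on 8 h replicate 4, the lowest of its group, without which it was 12. The control 8 h group holds no array numbered 4, while both 4 h groups and the knockdown 8 h group do. At 4 h that array had the lowest mean over the list in both arms (7.62 and 7.66). With all arrays numbered 4 left out, 21 rose in control and 11 in knockdown cells, an alternative chosen after seeing the data. The part of this imbalance in the difference between the arms was not tested.

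**Figure D4:**
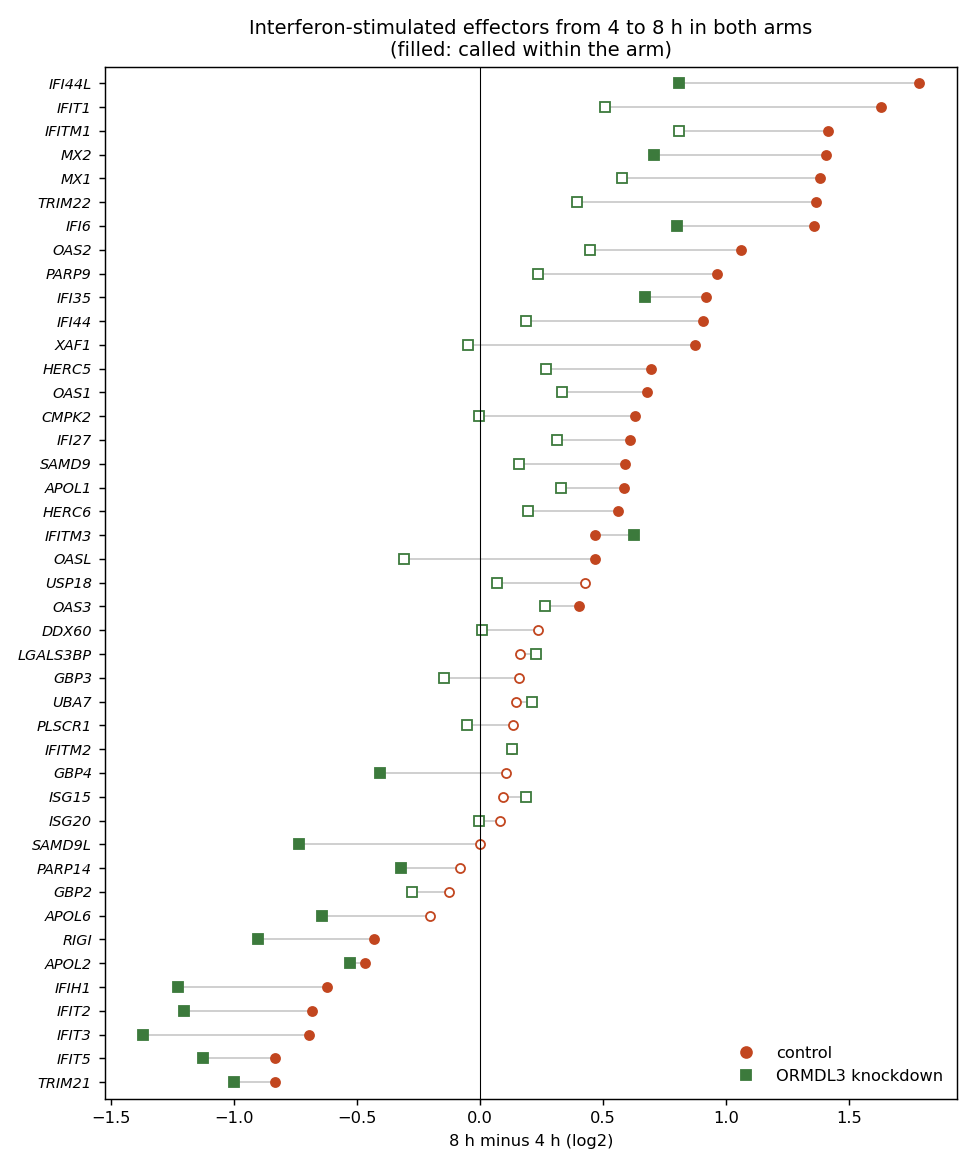
Difference between 8 h and 4 h (log2, horizontal axis) for the 43 measured interferon-stimulated effectors (rows) in control cells (circles, 3 and 4 arrays) and ORMDL3 knockdown cells (squares, 4 and 4 arrays), filled where called within that arm. The control value lies to the right of the knockdown value for 38 of the 43, and the test between arms called 0 of them.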

How the data were processed

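RNA of control and ORMDL3 knockdown A549 cells was hybridised to Affymetrix arrays. The deposited series matrix gives log2 values per probe set, normalized by the authors: limma 3.22.7, RMA, Affymetrix Power Tools and hg19 are listed, without roles or order, per the submitters' processing notes, and the values were used as deposited. Genes were named from the platform annotation, updated by Entrez identifier (12121 of 12132 probe sets with 1 symbol; 628 have several and 1728 none). Fixed genes that had no probe set with 1 symbol, such as CXCL1, TNF, CFB and SAA1, are not analysed here. The brightest probe set stands for a gene in list counts.

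limma 3.58.1 (R 4.3.3; lmFit, eBayes) was fitted to the 31 arrays after IL1B, 1 mean per group for 8 groups, with Benjamini-Hochberg adjustment over 14488 probe sets and calls at 0.05, two-sided. In simulated data for the control comparison, 70 of 100 probe sets shifted by 0.5 and 98 of 100 shifted by 1 were recovered, with 10 false calls among the other probe sets. Arrays give no depth, so precision rests on their number. No 2 arrays held identical values.

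Named genes were the 20 highest and 20 lowest among called, non-overlapping probe sets with 1 symbol, up to 4 per gene list, the 6 smallest p-values of the difference between arms, 8 early and 8 late genes, and a fixed set; other list members and IFIT3 were chosen after their values were seen, and apart from IFIT3 are given without their arrays. The gene lists and members were chosen with earlier results of these data known. Promoters matched by symbol for 9534 of 11893 measured genes. Alternatives were other sets of arrays, the replicate number as a block, quantile and median scaling, a filter leaving out probe sets with a mean under the median of all (called dim), other variance models, array weights, other sizes for early and late, and each array left out.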

Additional observations from a re-analysis of the deposited data

Results flagged for a closer look

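Among 193 named genes, 4 had 1 control array at 4 h whose gap to the nearest other array was a larger share of the group's range than Dixon's 95% critical value for 4 samples allows, which chance gives in about 1 group in 20. ID1 read 8.73 in replicate 4, with the other 3 at 10.01 to 10.17. IRF8, an interferon regulatory factor of immune cells, read 5.8 in replicate 4, with the others at 6.36 to 6.40. IL1A read 10.82 in replicate 2, with the others at 10.52 to 10.57. MAP3K8, a kinase upstream of ERK, read 10.91 in replicate 1, with the others at 11.12 to 11.16. The group at 8 h holds 3 arrays and was not tested in this way.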

How the results depend on the processing

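The fits of other arrays, scalings and variance models kept the control count of 2983 between 2247 and 3376, and leaving out 1 array kept it between 2293 and 2797. Without dim probe sets 7244 were tested, 25.4% of them were called, and the counts were 1838 in control (881 up, 957 down), 2022 in knockdown cells, and 5 and 2 interferon-stimulated effectors up in control and knockdown cells, of 13 left. The labels do not say that replicate numbers pair arrays, and the values did not settle it: deviations of same-numbered 4 h and 8 h arrays correlated at 0.19, 0.01 and 0.28, and 8 h replicate 2 correlated best with 4 h replicate 4 (0.25). The fixed replicate block moved the control count from 2983 to 3376. With the replicate block fixed or random, the difference between arms gave 1 call each (ICAM1, adjusted p = 0.0020 and 0.033), and the fixed replicate block gave 11 interferon-stimulated effectors up in knockdown cells. With a trended, robust variance the difference between arms gave 2 calls, DKK1 and a probe set outside the named genes. With 1 array left out it gave 0 to 1, the 1 being DUSP8 without knockdown 8 h replicate 3. The cause was not tested. Interferon-stimulated effectors up in knockdown cells numbered 4 to 12 with 1 array left out, and 11 with all arrays numbered 4 left out, an alternative chosen after seeing the data. Early genes called down made up 74.3% to 100% and late genes called up 69.6% to 100% over 1.5-fold and 4-fold definitions, separate fits and arrays numbered 4 left out. Of 193 named genes, 149 kept direction and call in all alternatives that tested them, with 95 lost calls, 25 gained calls and 10 changes of sign among the rest. There were up to 18 alternatives per gene, as dim genes were not tested in the fit without dim probe sets. Values near 0 changed sign with 1 array left out for NDUFS3 (-0.056 to 0.28, and -0.056 with all arrays numbered 4 left out), ITGAX (-0.0056 to 0.062), CD14 (-0.058 to 0.041), COL1A1 (-0.16 to 0.057), IL32 (-0.0083 to 0.11) and ZC3H12A (-0.086 to 0.0032).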

Other observations

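Other lists are read beside the 10.3% of all probe sets that rose and the 10.2% that fell. Glycolysis and glucose uptake genes gave 5 rises and 2 falls among 21 measured (1 fall in the fit of 7 arrays, and without any 1 array other than 4 h replicate 3 or 8 h replicate 1), with PDK4 (0.96), which restrains pyruvate oxidation, ENO2 (0.74) and PFKFB3 (0.60), an activator of glycolysis, up and the glucose transporter SLC2A1 (-0.43) down. Amino acid response genes gave 7 rises and 3 falls among 29, led by DDIT4 (1.15), an inhibitor of mTORC1, CHAC1 (0.92), which degrades glutathione, and TRIB3 (0.82). Sphingolipid genes gave 6 rises and 4 falls among 29, and ORMDL3 itself rose by 0.42 in control cells (adjusted p = 0.0072 by limma), with overlapping arrays and calls lost in the fit of 7 arrays (adjusted p = 0.098) and with all arrays numbered 4 left out (adjusted p = 0.060). The list gave 3 rises without 8 h replicate 2, and 2 among the 22 members left without dim probe sets. Among mRNA decay factors, ZFP36L2 (0.98) rose and ZC3H12C (-1.27), RC3H1 (-0.46) and RC3H2 (-0.45) fell, with 4 falls and 1 rise among 11, while ZFP36 (-0.25, adjusted p = 0.43 by limma) was not called.

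In the list of matrix proteolysis and hyaluronan genes, the plasminogen activators PLAT (-1.39) and PLAU (-0.98), the urokinase receptor PLAUR (-0.48), the proteoglycan VCAN (-0.78), the hyaluronan-binding TNFAIP6 (-1.26) and the sheddase ADAM17 (-0.44) fell, 6 of 21 measured, while 2 rose, the protease CTSS (0.40) among them, and 1 rose without 8 h replicate 2 or 8 h replicate 3. Of 8 measured genes of MHC class I presentation 3 rose, the transactivator NLRC5 (0.66) and the proteasome activators PSME1 (0.31) and PSME2 (0.29), and 2 fell, ERAP2 (-0.46) and PSMB10 (-0.38), both falls being lost without 8 h replicate 1 (adjusted p = 0.10 and 0.11 by limma). Unfolded protein response genes gave 5 rises and 1 fall among 28, but 3 rises without 8 h replicate 2, 2 rises in the fit of 7 arrays, and 0 falls without 4 h replicate 3, 4 h replicate 4 or 8 h replicate 1. Among single transporters and epithelial genes, the zinc importer SLC39A8 (0.67, adjusted p = 4.1e-09 by limma) rose, and the bicarbonate cotransporter SLC4A4 (-0.91, adjusted p = 3.4e-05) and E-cadherin, CDH1 (-0.70, adjusted p = 1.5e-05), fell.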
